A study of Mus musculus with 6 samples.

Results

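The genes described here set the pace of the first gap phase of the cell cycle: the D cyclins (Ccnd1, Ccnd2, Ccnd3), the E cyclins (Ccne1, Ccne2), the kinases they bind (Cdk2, Cdk4, Cdk6) and the transcription factors Myc and Mycn. They were measured on 6 Affymetrix MOE430_2 arrays. They were read from the probe sets whose array annotation names exactly 1 gene, that gene being on the list of 10. All 10 genes were measured, by 28 probe sets of 45037 tested. Among 18193 genes, each was represented by its brightest probe set, the one with the highest mean over the arrays.

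The RNA came from marrow cells of adult wild-type C57BL/6 mice, which had received no treatment and whose cells were sorted without culture. In both groups of 3 arrays the cells were negative for CD45 (leukocytes), TER119 (maturing red cells) and CD31 (endothelium). The first group was positive for EBF2, a transcription factor of immature mesenchymal cells, and the second was negative for it. Neither the number of mice, nor any pooling of them, nor the way EBF2 was read in the sort is stated in the labels. The p-values therefore speak of the spread among these arrays, part or all of which may be technical. Signals are given as log2 of the RMA signal, and differences as Ebf2-positive minus Ebf2-negative, with n = 3 arrays in each group. A gene or probe set is called when its adjusted p is under 0.05 (limma with Benjamini-Hochberg adjustment over all genes or all probe sets).

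D cyclins are made in response to growth signals and bind the kinases Cdk4 and Cdk6, which then phosphorylate the retinoblastoma protein and its relatives and free E2F factors to act. Among the genes E2F factors switch on are the E cyclins, which bind Cdk2 and carry the cell into DNA synthesis. MYC proteins pair with Max at the sequence CACGTG and drive genes of growth, ribosome making and cell cycle entry. In the marrow these genes are known for their activity in dividing blood precursors, while most stromal cells divide rarely.

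The letters that E2F and MYC factors are known to bind were looked up in the promoters as a description. Whether they go with the differences below was not tested. RefSeq promoter sequences (GRCm38.p6), which run from 250 bases before to 50 bases after a transcript's start, were matched for 6 members in 7 windows: Ccnd3 (2 windows), Ccne1, Cdk2, Cdk4, Cdk6 and Mycn. The set of sequences searched held no window of Myc, Ccnd1, Ccnd2 or Ccne2. Both strands were searched for the E-box CACGTG, which reads the same on both strands and was counted once, and for the E2F letters TTTGGCGC, TTTCGCGC, TTTCCCGC and TTTGCCGC. Of 32851 windows of the same length, 7.15% held at least 1 E-box and 0.0244% (8 windows) held at least 4. At least 1 E2F match was in 2.26% of them, and at least 3 were in 0.0122% (4 windows). The promoter of Cdk4 held 4 E-boxes, with first bases at -172, -118, -98 and -11 from the start, and that of Cdk6 held 1, at -220. The promoter of Cdk2 held 1 E2F match, at -140. That of Mycn held 3, at -183, -179 and -168, of which the first and the second overlap. The windows of Ccne1 and Ccnd3 held neither set of letters. A match is a description of the letters and not a bound site. Capitals mark the E-boxes in the stretches of Cdk4 (chr10:127063285-127063534, plus strand) and Cdk6 (chr5:3343648-3343707, plus strand), and the E2F letters in those of Cdk2 (chr10:128705157-128705216, minus strand) and Mycn (chr12:12941982-12942041, minus strand).
Cdk4: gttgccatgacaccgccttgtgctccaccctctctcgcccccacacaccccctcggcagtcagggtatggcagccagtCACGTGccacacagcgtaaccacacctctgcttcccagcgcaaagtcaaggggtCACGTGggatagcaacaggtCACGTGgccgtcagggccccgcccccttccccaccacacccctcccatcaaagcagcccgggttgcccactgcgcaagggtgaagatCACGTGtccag
Cdk6: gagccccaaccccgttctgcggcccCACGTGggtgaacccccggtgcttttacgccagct
Cdk2: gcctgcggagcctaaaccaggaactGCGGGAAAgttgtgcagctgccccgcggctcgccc
Mycn: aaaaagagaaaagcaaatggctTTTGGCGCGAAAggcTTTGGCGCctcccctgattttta

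Of the 10 genes, 6 were called lower in Ebf2-positive cells (Ccne1, Ccne2, Cdk2, Cdk4, Cdk6 and Myc) and 0 higher, and 4 were not called (Ccnd1, Ccnd2, Ccnd3 and Mycn). Over all 18193 genes 13.6% were called lower and 10.8% higher. The median difference of the 10 was -1.74, against 0.07 over all genes. Both E cyclins, Cdk2, Cdk4, Cdk6 and Myc were each lower on every Ebf2-positive array than on any Ebf2-negative array. Counting Ccnd1 and Ccnd3, the groups of 8 members did not overlap, 7 lower and 1 higher, while 43% of all genes had groups apart, 21.2% lower and 21.8% higher. In RNA from a sorted bulk sample, fewer cells of a type and less RNA per cell cannot be told apart.

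Each array held RNA of 1000 or 2000 cells, and no label says which array had which number. The added poly-A control RNAs averaged 12.32 on Ebf2-positive and 9.84 on Ebf2-negative arrays. Centring the arrays on them moves every difference by -2.48 and the median of all genes to -2.41, and the median moves to 0.19 with centring on the 75th percentile. The differences below are therefore relative to the other genes of the array. With centring on the poly-A controls, 8 of the 10 members were called lower and 0 higher. Of all 18193 genes, 15596 were called lower and 227 higher with that centring, so the 8 are no result about the members. Any difference above 0 but under 2.48 turns negative, as the positive ones of the D cyclins do.

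**Figure D1:**
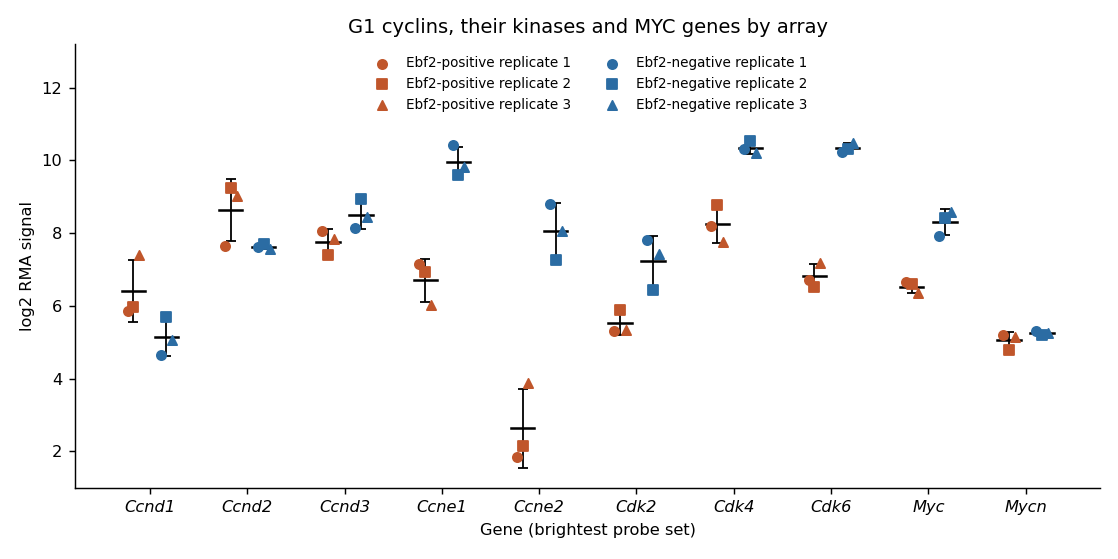
Log2 RMA signal (vertical axis) of the brightest probe set of each gene (horizontal axis) on the 3 Ebf2-positive (orange) and 3 Ebf2-negative (blue) arrays, with group means (bars) and SD (whiskers). Both E cyclins, the 3 kinases and Myc lie lower on all Ebf2-positive arrays, while the groups of Ccnd2 and Mycn overlap. Heights are not comparable between genes, since probe sets differ in brightness.

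The D cyclins did not share a direction in the values as deposited, while all 3 were negative with centring on the poly-A controls. As the mean of all its probe sets, Ccnd1 differed by 0.67, Ccnd2 by 0.57 and Ccnd3 by -0.19, less than the brightest probe sets described next, and 0 of the 3 passed. Ccnd1, the cyclin most closely tied to growth factor and adhesion signals in mesenchymal cells, had signals of 5.87, 5.96 and 7.40 on Ebf2-positive replicates 1, 2 and 3 and of 4.65, 5.69 and 5.07 on the Ebf2-negative arrays. All 3 Ebf2-positive arrays were above the Ebf2-negative ones, by little for replicates 1 and 2. The difference was 1.27 (SE 0.49, 95% interval 0.10 to 2.44) and did not pass (adjusted p = 0.112, limma), and it was -1.21 with centring on the poly-A controls. Without Ebf2-positive replicate 3, the highest array, it was 0.78 (adjusted p = 0.174). Its other probe sets differed by 0.38 and 0.37 with overlapping groups.

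Ccnd2, a D cyclin that also takes part in the growth of blood and stromal cells, was measured by 7 probe sets. Its brightest probe set read 7.66, 9.25 and 9.02 in Ebf2-positive and 7.61, 7.70 and 7.57 in Ebf2-negative cells. Ebf2-positive replicate 1 lay within the Ebf2-negative range and the other two lay above it. The difference of 1.02 (SE 0.42, 95% interval 0.00 to 2.04) did not pass (adjusted p = 0.140, limma). Without Ebf2-positive replicate 1 it was 1.51 and passed (adjusted p = 0.00673), and with centring on the poly-A controls it was -1.46.

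The next brightest Ccnd2 probe sets were called higher when tested among all probe sets, of which 6.39% were. Probe set 1416122_at read 8.08, 8.62 and 8.22 against 6.51, 7.53 and 7.10, a difference of 1.26 (SE 0.31, adjusted p = 0.0417, limma). Probe set 1455956_x_at read 7.97, 8.83 and 8.38 against 7.25, 7.53 and 7.28, a difference of 1.03 (SE 0.26, adjusted p = 0.0448). In both the groups do not overlap, but neither call was firm. The first was lost without any single array other than Ebf2-negative replicate 2 (adjusted p up to 0.125), and the second without any other than Ebf2-positive replicate 1 (up to 0.150). Both turned negative with centring on the poly-A controls, to -1.22 and -1.44. The remaining Ccnd2 probe sets differed by -0.46 to 0.51 with overlapping groups, and their signals were dimmer.

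Ccnd3, the D cyclin known for its part in red cell and lymphocyte precursors, read 8.06, 7.40 and 7.84 in Ebf2-positive and 8.14, 8.94 and 8.44 in Ebf2-negative cells. The groups were apart by less than the spread within either. The difference of -0.74 (SE 0.29, 95% interval -1.44 to -0.04) did not pass (adjusted p = 0.120, limma). With centring on the poly-A controls it was -3.22 and called lower, as most genes were. That call rests on the shift of all differences by -2.48 and is no evidence about Ccnd3. A dimmer probe set had the opposite sign with groups that also do not overlap, at 4.91, 5.16 and 4.96 against 4.53, 4.85 and 4.79 (difference 0.29, adjusted p = 0.355 among probe sets). The probe sets of Ccnd3 thus disagree in sign.

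Both E cyclins fell in Ebf2-positive cells. Ccne2 read 1.86, 2.16 and 3.87 in Ebf2-positive and 8.81, 7.27 and 8.06 in Ebf2-negative cells. Ebf2-positive replicates 1 and 2 were below the median of all values, 3.74, and near the lowest value of the table, 1.13, so the size of the difference depends on how dim signals are treated. The difference was -5.42 (SE 0.63), or 42.8-fold (adjusted p = 0.00208, limma), and it was -3.61 (adjusted p = 0.00452) on the log2(value + 16) scale, which compresses dim signals. Ebf2-positive replicate 3 stood above its group here, yet far under the Ebf2-negative arrays.

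Ccne1 read 7.16, 6.93 and 6.02 in Ebf2-positive and 10.42, 9.61 and 9.83 in Ebf2-negative cells. Its difference was -3.25 (SE 0.37), or 9.51-fold (adjusted p = 0.00199, limma). This brightest probe set carries a suffix for possible cross-hybridisation. The other, without that suffix, read 5.33, 3.30 and 4.29 against 9.08, 8.64 and 8.75, a larger difference of -4.51 (adjusted p = 0.00337 among probe sets). The groups were far apart on both, and both E cyclins stayed called lower in every alternative in which they were tested.

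Cdk6, a partner of D cyclins that is known for its high level in blood progenitors, had the smallest adjusted p of the 10. It read 6.72, 6.53 and 7.18 in Ebf2-positive and 10.23, 10.31 and 10.48 in Ebf2-negative cells. The arrays of each group lay close together, with SD of 0.33 and 0.13. The difference was -3.53 (SE 0.23), or 11.6-fold (adjusted p = 0.000384, limma), and it was -2.19 (adjusted p = 0.00631) as the mean of its 3 probe sets.

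A second bright Cdk6 probe set varied more. It read 7.92, 5.13 and 7.84 in Ebf2-positive and 10.31, 10.02 and 9.61 in Ebf2-negative cells, with Ebf2-positive replicate 2 lowest. Its difference of -3.02 (SE 0.77) passed narrowly (adjusted p = 0.0478 among probe sets), and the call was lost without any single array other than Ebf2-positive replicate 2 (adjusted p up to 0.149). The third Cdk6 probe set was under the median of all values on all 6 arrays (difference -0.01).

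Cdk4, the other D cyclin kinase and the gene with 4 E-boxes in its promoter, read 8.19, 8.76 and 7.75 in Ebf2-positive and 10.31, 10.52 and 10.19 in Ebf2-negative cells. The Ebf2-negative arrays again lay close together and above the rest. The difference was -2.10 (SE 0.29), or 4.3-fold (adjusted p = 0.00388, limma). All 3 of its probe sets were called lower, by -2.06 to -2.32, which were the most uniform of the genes with several probe sets. All 3 stayed called in every alternative in which they were tested.

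Cdk2, the partner of the E cyclins, had the least firm of the 6 calls. It read 5.32, 5.89 and 5.35 in Ebf2-positive and 7.81, 6.45 and 7.42 in Ebf2-negative cells. Ebf2-negative replicate 2 came within 1 log2 unit of Ebf2-positive replicate 2, the highest of its group. The difference was -1.70 (SE 0.39), or 3.26-fold (adjusted p = 0.0217, limma). Leaving out Ebf2-positive replicate 1 or 3 ended the call (adjusted p = 0.0622 and 0.0574, limma), as did leaving out Ebf2-negative replicate 1 or 3 (0.0655 and 0.0831). Its second probe set, under the median of all values on all arrays, differed by 0.20 with overlapping groups, and the mean of both probe sets differed by -0.75 and did not pass (adjusted p = 0.0963, limma).

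Myc read 6.67, 6.59 and 6.35 in Ebf2-positive and 7.92, 8.42 and 8.59 in Ebf2-negative cells. The groups were apart by more than the whole spread within either. The difference was -1.78 (SE 0.24), or 3.42-fold (adjusted p = 0.00356, limma), from the only probe set that names Myc alone. Mycn, its relative that is best known from embryonic and neural tissue, read 5.21, 4.78 and 5.15 against 5.32, 5.20 and 5.26. The groups overlap, and the difference of -0.21 (95% interval -0.69 to 0.27) did not pass (adjusted p = 0.497, limma). Of the other Mycn probe sets, the brighter differed by -0.73 (adjusted p = 0.229 among probe sets) and the dimmer by 0.06. With centring on the poly-A controls Mycn was called lower (-2.69), as most genes were, so this is no result about Mycn.

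Over the 28 probe sets, 10 were called lower and 2 higher, both of Ccnd2, while 8.76% and 6.39% of all 45037 probe sets were. In either direction, 15.1% of all probe sets were called. Groups did not overlap in 35.9% of all probe sets, 16.9% lower and 19.1% higher. Of the 16 not called, 4 were at or under the median of all values on all 6 arrays. Probe sets of a gene share their target and are not replicates.

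**Figure D2:**
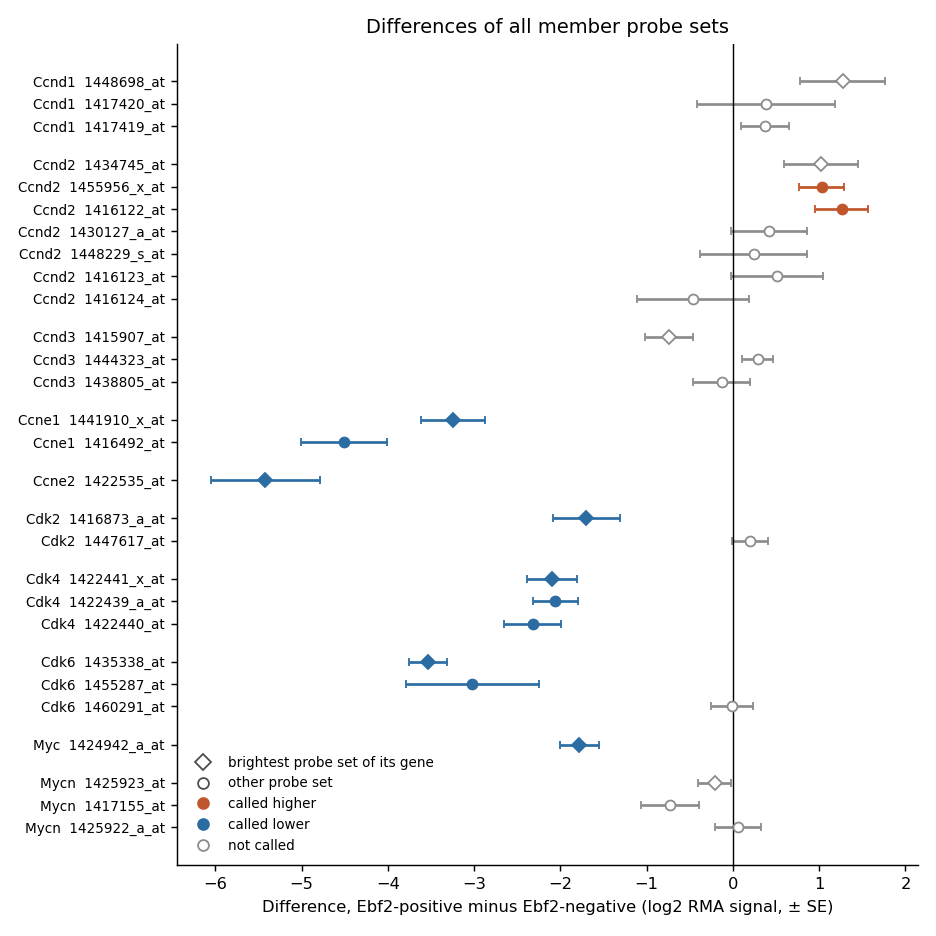
Difference in log2 RMA signal (horizontal axis, whiskers SE) of each of the 28 probe sets (rows, grouped by gene). Diamonds are the brightest probe set of a gene and filled symbols are called, blue lower and orange higher. The 10 called lower lie at -1.70 or below and belong to Ccne1, Ccne2, Cdk2, Cdk4, Cdk6 and Myc, and the 2 called higher belong to Ccnd2.

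Whether relatives differed in their response was asked from the difference between both genes on each array, in 6 pairs. With 3 against 3 arrays an exact two-sided permutation test cannot go below p = 0.1, so none could pass. Ccnd1 minus Ccnd3 was -2.19, -1.44 and -0.44 in Ebf2-positive and -3.49, -3.24 and -3.38 in Ebf2-negative cells. The groups do not overlap, and the shift was 2.01 towards Ccnd1 (exact permutation p = 0.1, adjusted over the 6 pairs 0.15). Ccnd2 minus Ccnd3 shifted by 1.76, also without overlap (exact p = 0.1, adjusted 0.15), with -0.40, 1.85 and 1.18 against -0.53, -1.24 and -0.88. With the mean of each gene's probe sets these shifts were 0.87 and 0.77, and the exact permutation p was 0.4 for each. Ccnd1 and Ccnd2 overlapped in this measure, with a shift of 0.25 (exact p = 0.7).

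Cdk4 minus Cdk6 was 1.47, 2.23 and 0.58 against 0.07, 0.21 and -0.29, a shift of 1.43 without overlap (exact permutation p = 0.1, adjusted 0.15). Cdk6 thus had the larger drop of these kinases on the brightest probe sets. With the mean of each gene's probe sets, which takes in the dim Cdk6 probe set, the shift was 0.03. Myc minus Mycn shifted by -1.57 without overlap (exact p = 0.1, adjusted 0.15), and the E cyclins overlapped with a shift of 2.17 (exact p = 0.2, adjusted 0.24). The E cyclin shift was 0.55 on the log2(value + 16) scale and 0.91 without probe sets suffixed _s_, _x_ or _a_. Such shifts do not depend on how arrays are centred.

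The inhibitors and pocket proteins, which hold these kinases and E2F factors in check, were mixed. Of 10 measured, 2 were called higher and 2 lower (24.4% of all genes were called), with a median of -0.03 against 0.07 over all genes. With centring on the poly-A controls 7 were called lower and 0 higher, beside 15596 and 227 of all 18193 genes, and so no result about them. Cdkn1a, an inhibitor that binds cyclin and CDK complexes, read 8.59, 7.77 and 8.2 against 6.11, 6.94 and 6.07, a difference of 1.82 (SE 0.33, adjusted p = 0.0102, limma). It was higher on all 3 Ebf2-positive arrays but turned to -0.66 with centring on the poly-A controls. Cdkn2b, an inhibitor of Cdk4 and Cdk6, was higher by 1.60, or -0.88 with that centring, a call that ended when Ebf2-negative replicate 1 or 2 was left out (adjusted p = 0.0652 and 0.0627). On the log2(value + 16) scale it was 0.80 and did not pass (adjusted p = 0.0566). Cdkn2c, of the same inhibitor family, was lower by -1.51 a call that ended when Ebf2-positive replicate 1 or 3 was left out (adjusted p = 0.0532 and 0.0517). Rbl1, a pocket protein that is itself known as an E2F target, was lower by -3.43 (adjusted p = 0.000408).

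Of 10 E2F and DP factors, 7 were called lower and 1 higher (13.6% and 10.8% of all genes were), with a median of -1.83 against 0.07 over all genes. Tfdp2, a DP partner of E2F factors, fell by 5.16 (adjusted p = 0.000659, limma), from 9.12 ± 0.13 (SD, n = 3) in Ebf2-negative to 3.96 ± 0.83 in Ebf2-positive cells. E2f8 and E2f7, E2F members that repress, differed by -4.90 and -3.11, and E2f2, an activator, by -3.29. The higher gene was E2f5, an E2F that works with pocket proteins, named after its value was seen (1.49, or -0.99 with centring on the poly-A controls). E2f1 read 5.90, 3.29 and 4.49 against 5.24, 5.76 and 6.26, overlapped, and did not pass (adjusted p = 0.251).

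Of 14 measured genes known as E2F targets, 12 were called lower (13.6% of all genes were) and 0 higher, with a median of -3.37 against 0.07 over all genes. Cdc6, a loader of the replicative helicase, differed by -4.54, the helicase subunits Mcm5 and Mcm6 by -4.34 and -3.88, and Tk1, thymidine kinase, by -4.19. The others, Cdt1 and Tyms, did not pass (adjusted p = 0.0512 and 0.366, limma). Of 9 measured S and M phase cyclins and kinases, 8 were called lower and 0 higher, against the same 13.6% of all genes called lower, with a median of -3.53. Bub1, a checkpoint kinase, differed by -5.01, Aurkb, a kinase of chromosome segregation, by -4.54, Ccna2, the cyclin of S phase, by -4 and Cdk1, the mitotic kinase, by -3.59. Of 16 regulators of CDK activity and cyclin turnover, 11 were called lower and 0 higher, again beside 13.6% of all genes, with a median of -2.17. Cks2, a small CDK-binding protein, differed by -3.39, Cdk7, the CDK-activating kinase, by -3.37, and Cdc25c, a phosphatase that activates CDKs, by -3.06. Cdk7 was 0.38 (adjusted p = 0.407) from a probe set without the suffixes _s_, _x_ or _a_. Skp2, which marks CDK inhibitors for breakdown, differed by -2.95 but was not called once Ebf2-negative replicate 1 was left out (adjusted p = 0.0607).

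All 18 genes known as MYC targets were called lower, beside 13.6% of all genes, with a median of -2.22 (0.07 over all genes) and a range from -3.97 to -1.13. The largest differences were those of Nop58 (-3.97), Nolc1 (-3.25), Ncl (-3.11) and Ddx21 (-2.71), which act in the nucleolus in the making of ribosomes. Between 16 and 18 of them were called when single arrays were left out, beside 2690 to 4348 of all genes. When probe sets suffixed _s_, _x_ or _a_ were left out, 13 were called, beside 3555 of all genes still measured. Of 12 partners and antagonists of MYC, 1 was called higher and 2 lower, with a median of 0.05. That share is near the 24.4% of all genes called and so no result about them. With centring on the poly-A controls 10 were called lower, beside 15596 of all 18193 genes, again no result about them. Max, the partner MYC needs, read 4.82, 3.69 and 4.54 against 4.49, 4.85 and 4.35 and overlapped (adjusted p = 0.699, limma). It was named after its value was seen.

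Mxd4, a Max-binding repressor that opposes MYC, was higher by 1.93 (adjusted p = 0.0056, limma), or -0.54 with centring on the poly-A controls and 0.63 (adjusted p = 0.361) from a probe set without the suffixes _s_, _x_ or _a_. Mlx, a partner of related factors, was lower by -1.36. Mxd1, another repressor, was lower by -2.91 and lost its call without any single array other than Ebf2-positive replicate 2 (adjusted p from 0.0516 to 0.102). Without Ebf2-positive replicate 2, 3 of the 12 were called higher and 2 lower, beside 1877 and 2471 of all 18193 genes.

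**Figure D3:**
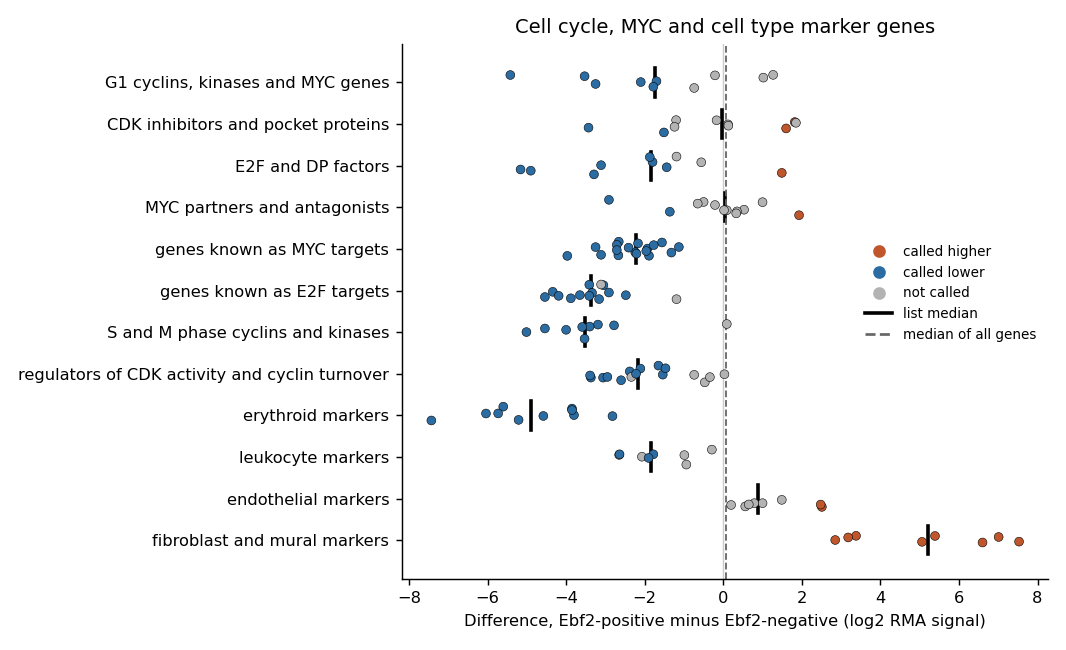
Difference in log2 RMA signal (horizontal axis) of each measured gene (points) in 12 gene lists (rows). Blue points are called lower, orange called higher and grey not called, bars are list medians and the dashed line is the median of all genes, 0.07. The lists of E2F targets, MYC targets and S and M phase genes lie to the left with the called members, and the inhibitors and MYC partners spread around the dashed line.

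Markers of cell types that the gate could hold were compared between the same groups. The erythroid list and the fibroblast and mural list were called throughout, while most leukocyte and endothelial markers were not called. All 10 erythroid markers were called lower (13.6% of all genes were), with a median of -4.90. Rhag (-7.43), Slc4a1 (-6.04), Trim10 (-5.73) and Tal1 (-5.60) led them, and Rhag and Trim10 were under the median of all values on all 3 Ebf2-positive arrays. The mean level of the list ran from 4.71 to 5.55 on the Ebf2-positive and from 9.92 to 10.15 on the Ebf2-negative arrays. Both groups were gated as negative for TER119. The mean level of the 10 cell cycle and MYC members ran from 6.27 to 6.59 and from 8.01 to 8.12. Of 8 leukocyte markers 3 were called lower, Laptm5 (-2.64), Lcp1 (-1.90) and Rac2 (-1.78), beside 13.6% of all genes, with list means from 5.49 to 6.60 and from 7.43 to 7.99. Leaving out Ebf2-positive replicate 2 made that count 6, with 2471 of all 18193 genes called lower. Leaving out Ebf2-negative replicate 3 made the count 1, with 1396 of all genes called lower. It also ended the calls of Laptm5 and Rac2 (adjusted p = 0.0547 and 0.0527, limma). A Laptm5 probe set without the suffixes _s_ or _x_ differed by 0.19.

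All 8 fibroblast and mural markers were called higher (10.8% of all genes were), with list means from 12.11 to 12.34 and from 6.76 to 7.73. They were led by Dpt (7.53), Acta2 (7.01), Rgs5 (6.60) and Col3a1 (5.39). An Acta2 probe set without the suffixes _s_ or _x_ differed by 0.34 (adjusted p = 0.457, limma). Of 8 endothelial markers 2, Tek (2.51) and Esam (2.48), were called higher, where 10.8% of all genes were called higher and 24.4% called in all. Both were at or near 0 (0.03 and 0.00) with centring on the poly-A controls. With that centring 15596 of all 18193 genes were called lower and 227 higher. Called lower with it were 4 endothelial and all 8 leukocyte markers, which is no result about them. Of the fibroblast and mural markers 5 stayed higher. The endothelial list means ran from 5.66 to 6.89 and from 4.43 to 5.75. Ebf2 itself was higher by 4.67. Ptprc, which encodes CD45, read 6.68, 6.76 and 3.59 against 8.78, 7.98 and 8.23 (-2.65, adjusted p = 0.0698), and Pecam1, which encodes CD31, averaged 3.57 and 3.01, near or under the median of all values in both groups. The part of these cell types in the differences of the cyclins, kinases and Myc was not tested.

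The genes whose signals ran most like those of the 6 called members over the 6 arrays were found by Pearson's r among 12229 genes above the median of all values on at least 3 arrays. For Ccne1 they were Dctd and Hspe1 and for Ccne2 Gabpb1 and Alg10b. For Cdk2 they were Stoml2 and Nhlrc2, for Cdk4 Ebna1bp2 and Rmc1, for Cdk6 Ankrd13a and Cct2, and for Myc Ppbp and Tubg1. All 12 had r of at least 0.994 and differences from -3.44 (Dctd) to -0.81 (Nhlrc2). From 716 genes (for Cdk2) to 1653 genes (for Cdk6) had r above 0.9, since 6 arrays in 2 groups give many genes the same pattern. Among the members, r over the 6 arrays was from 0.81 (Cdk2 and Myc) to 0.98 (Ccne2 and Cdk6) for pairs of the 6 called genes. It was below 0 for Ccnd1 and Ccnd2 with each of the 6, from -0.88 (Ccnd1 and Ccne1) to -0.57 (Ccnd2 and Cdk2). These correlations are descriptions over points that share the split into groups.

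**Figure D4:**
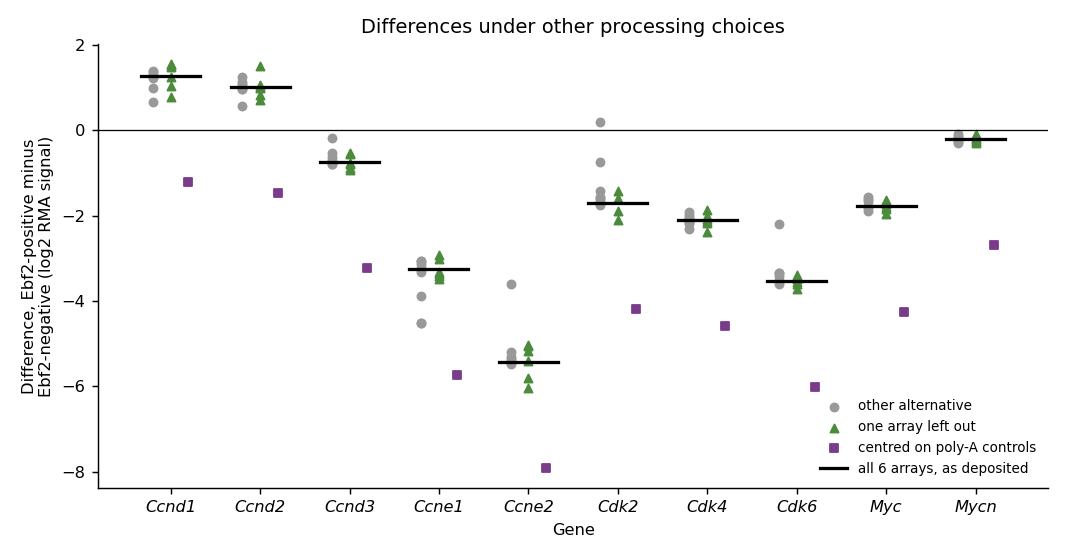
Difference in log2 RMA signal (vertical axis) of each member gene (horizontal axis) with all 6 arrays as deposited (bars), with single arrays left out (green triangles), with centring on the poly-A controls (purple squares) and under the other alternatives (grey circles). Both E cyclins, Cdk4, Cdk6 and Myc stay below 0 throughout, Cdk2 reaches 0.20 in a single alternative, and Ccnd1 and Ccnd2 fall below 0 with the poly-A centring.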

How the data were processed

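Per the series design text, RNA of 1000 or 2000 cells was amplified in a dual round. The series title gives both groups the same Ebf2 sign, so groups were taken from the sample titles, which the sort descriptions match. The deposited values are linear intensity values per probe set, made by the authors with RMA per the submitters' processing notes (version not stated there), which normalizes quantiles between arrays. Their log2 was taken. Of 45101 probe sets, 64 controls were left out. The array's annotation pairs 34945 probe sets with exactly 1 gene. The test, two-sided, was that of limma 3.58.1, run in R 4.3.3 with lmFit and eBayes and no block, and was tested on simulated data. The members and gene lists were chosen with earlier results of these data known, so their counts are descriptions. Named were all members, up to 4 called genes of each list with the largest differences, and the 2 genes most like each called member. Genes stated to be chosen later were also named. So were E2f1, Cdt1 and Tyms, and the sort genes Ebf2, Ptprc and Pecam1, outside that rule. Alternatives covered scaling, log offset, filters on dim probe sets, choice of probe sets, variance models, array weights, a replicate block and leaving out each array. The small number of arrays, 3 per group, limits precision. Amplification and quantile normalization hide differences in RNA per cell and distort dim signals. Figures used matplotlib 3.10.9 in Python 3.11.15.

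Same-numbered arrays correlated in their deviations from the group means by 0.058, 0.106 and 0.029, so the numbers were not taken to pair the samples.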

Additional observations from a re-analysis of the deposited data

How the results depend on the processing

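The count of called members, 6 of 10 genes, ran from 4 (without probe sets suffixed _s_, _x_ or _a_, which leaves Myc with no value) to 8 (centring on the poly-A controls), and from 5 to 6 without single arrays. Called member probe sets, 12 as reported, were 24 (0 higher) with poly-A centring, 5 (1 higher) without the suffixed ones, and 8 to 10 without single arrays. Over all genes, 4430 were called, 15823 with poly-A centring (227 higher) and 3555 without the suffixed probe sets. Leaving out single arrays gave 2690 to 4348, the lowest without Ebf2-negative replicate 3. Without Ebf2-negative replicate 1, 1586 were called lower, against 2469. Over all probe sets, 6822 were called, 40713 with poly-A centring (328 higher), 4323 without the suffixed ones and 3526 to 6697 without single arrays, the lowest without Ebf2-negative replicate 3 (4076 without replicate 1).

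Poly-A centring reversed Ccnd1 (-1.21), Ccnd2 (-1.46; probe sets -1.22 and -1.44), Cdkn1a (-0.66), Cdkn2b (-0.88), Mxd4 (-0.54), E2f5 (-0.99) and, at 0.00, Esam, since it moves all differences by -2.48. Without the suffixed probe sets Cdk2 was 0.20, Cdk7 0.38 and Laptm5 0.19, from dimmer probe sets. With only _s_ and _x_ left out, an alternative chosen after seeing the data, Laptm5 was again 0.19 and 6 members stayed called. That alternative called 4210 genes in all. The mean over a gene's probe sets gave Cdk2 -0.75 (adjusted p = 0.0963, limma). The shift between Ccnd1 and Ccnd2 ran from -0.05 to 0.78 without single arrays. The shift kept its sign in all alternatives run for the other 5 pairs.

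With the replicate block, 5 members were called, since Cdk2 was lost (adjusted p = 0.0523), and 4219 genes in all. It changed no other member gene's call, but ended those of probe sets 1455956_x_at of Ccnd2, 1416873_a_at of Cdk2 and 1455287_at of Cdk6 (adjusted p = 0.0524, 0.0799 and 0.0563). Called in all alternatives run were Ccne1, Ccne2, Cdk4, Cdk6 and Myc. Dim signals limit what the probe sets under the median can show.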
